A study of Mus musculus with 4 samples.

Results

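CpG-island-like regions are described here, in the DNA of hair matrix keratinocytes lacking Tet2 and Tet3 and in that of WT cells. A region counted as island-like if it lay on chromosome 1 to 19, held at least 40 cytosine positions and had a mean spacing below 12 bp per position in the authors' deposited table. The rule found 6430 regions, 1.35% of the 474611 autosomal regions and part of 484555 listed in all. Both strands of a CpG mostly have a position of their own in the table, so the rule asks for about 20 CpGs at under 24 bp per CpG. Such a region is called an island below, although no CpG island annotation was used. The islands covered 7.47 Mb together, with a median of 138 positions (interquartile range 84 to 210) and a median width of 1006 bp (639 to 1520).

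Hair matrix keratinocytes are the dividing cells of the follicle bulb, from which the hair shaft and inner root sheath form. They were sorted from mice aged 4.5 days after birth (P4.5), and their DNA was read by whole-genome bisulfite sequencing. There were 2 libraries of Tet2/Tet3 DKO, Krt14-Cre cells and 2 of WT cells. In the DKO, Cre is driven by the promoter of Krt14, a keratin gene active in basal epithelial cells, and the labels do not say whether the WT mice carried the Cre. Nor do they say whether the libraries of a genotype came from separate animals, or the sex of the animals.

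CpG islands are stretches of DNA rich in CG dinucleotides, and in mammals most lie at the start of a gene and are free of methylation in nearly all tissues. Known exceptions are the control regions of imprinted genes, methylated on the copy from a single parent, and the starts of germline genes, methylated in the body's other cells. TET enzymes oxidise 5-methylcytosine to 5-hydroxymethylcytosine and further products, a step towards unmethylated cytosine. TET1 is known to bind CpG-rich DNA through its own CXXC domain, and TET3 has a CXXC domain in some isoforms. Bisulfite does not separate these oxidised 5-hydroxymethylcytosines from 5-methylcytosines, and the methylation levels given here count them together.

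The promoters of 6 genes show what the islands look like as sequence, and were chosen to cover those that stayed low, those methylated in both genotypes and those that gained. Each is the RefSeq window of 250 bases before to 50 bases after the gene start on build GRCm38.p6, printed 5′ to 3′ along the gene, with every CG in capitals. Ptch1 (chr13:63565686-63565985, minus strand, 47 CG) and Cux1 (chr5:136565932-136566231, minus strand, 25 CG) lie in islands that stayed low. Nnat (chr2:157559828-157560127, plus strand, 17 CG) is imprinted and Mael (chr1:166238695-166238994, minus strand, 24 CG) is a germline gene. Olfr750 (chr14:51071393-51071692, minus strand, 11 CG), an olfactory receptor gene, and Gm31399 (chr11:114423382-114423681, plus strand, 13 CG), a long non-coding RNA gene, lie at islands that gained methylation in the DKO.
Ptch1: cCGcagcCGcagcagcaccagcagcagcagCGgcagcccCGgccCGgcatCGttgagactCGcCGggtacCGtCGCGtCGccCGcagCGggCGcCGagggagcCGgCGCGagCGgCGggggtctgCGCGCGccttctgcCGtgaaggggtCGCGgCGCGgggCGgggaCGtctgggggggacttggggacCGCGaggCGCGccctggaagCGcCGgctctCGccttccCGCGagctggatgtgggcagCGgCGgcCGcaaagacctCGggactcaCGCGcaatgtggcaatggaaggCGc
Cux1: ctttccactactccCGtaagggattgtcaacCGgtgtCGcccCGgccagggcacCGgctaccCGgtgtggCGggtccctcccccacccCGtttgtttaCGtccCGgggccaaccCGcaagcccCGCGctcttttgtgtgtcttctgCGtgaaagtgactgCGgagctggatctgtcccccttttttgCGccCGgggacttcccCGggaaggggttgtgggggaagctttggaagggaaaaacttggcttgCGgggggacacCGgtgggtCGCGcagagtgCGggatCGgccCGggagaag
Nnat: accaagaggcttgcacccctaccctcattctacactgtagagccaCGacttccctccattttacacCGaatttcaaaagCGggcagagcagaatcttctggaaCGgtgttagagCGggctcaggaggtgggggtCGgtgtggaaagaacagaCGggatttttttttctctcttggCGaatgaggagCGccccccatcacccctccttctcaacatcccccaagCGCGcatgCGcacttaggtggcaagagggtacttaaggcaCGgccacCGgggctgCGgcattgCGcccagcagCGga
Mael: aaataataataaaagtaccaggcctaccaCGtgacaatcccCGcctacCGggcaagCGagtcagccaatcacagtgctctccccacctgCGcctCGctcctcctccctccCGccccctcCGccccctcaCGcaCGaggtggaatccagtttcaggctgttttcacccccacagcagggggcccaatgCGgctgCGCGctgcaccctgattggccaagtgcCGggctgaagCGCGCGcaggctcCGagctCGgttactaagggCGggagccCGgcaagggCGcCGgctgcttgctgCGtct
Olfr750: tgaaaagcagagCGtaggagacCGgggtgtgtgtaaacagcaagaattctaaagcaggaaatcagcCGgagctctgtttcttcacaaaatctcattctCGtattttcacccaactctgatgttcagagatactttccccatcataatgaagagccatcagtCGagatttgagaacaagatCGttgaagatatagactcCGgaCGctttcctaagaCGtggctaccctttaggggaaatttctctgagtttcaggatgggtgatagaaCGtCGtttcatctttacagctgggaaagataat
Gm31399: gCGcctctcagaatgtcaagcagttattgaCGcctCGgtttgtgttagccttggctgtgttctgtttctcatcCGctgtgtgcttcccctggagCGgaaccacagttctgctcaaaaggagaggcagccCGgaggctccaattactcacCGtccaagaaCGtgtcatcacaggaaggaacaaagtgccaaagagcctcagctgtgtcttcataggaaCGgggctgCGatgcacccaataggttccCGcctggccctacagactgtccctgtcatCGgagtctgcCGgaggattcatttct
Over the 4703 tabulated promoters with at least 150 of their 300 bases inside a low island, the median was 27 CG dinucleotides, a GC content of 66.3% and an observed-to-expected CG ratio of 0.851. The 31387 tabulated autosomal promoters had medians of 7, 53% and 0.389. The GC box GGGCGG, sought on both strands, was present in 77.5% of the low-island promoters and in 36.0% of all. TATAAA was present in 4.89% and 13.6% on either strand. The 34 promoters in islands at 20% or more in the WT that did not gain had a median ratio of 0.727. Only the 2 promoters shown had as many bases in a gaining island, and neither has a GC box or TATAAA. A match or its absence describes these letters only.

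Each value below is a mean over a genotype's libraries in the authors' deposited table, and values per library were not analysed. No difference therefore has a replicate check or a test, the sequencing depth is unknown, and every comparison is a description of these group means. The spread estimate quoted for a region is the authors' own. The header names no genotype. The WT was taken as the group given before the knockout in the table's title, so all directions would turn if that order were the opposite. Being listed is not a sign of change: in the authors' deposited table, 6339 islands had a positive statistic, which by its sign stands for a higher WT, yet 3512 of these had a higher mean in the DKO. For islands, the mean statistic per position lay above the WT-minus-DKO difference divided by the spread estimate by a median of 2.02. The highest statistic of a region came nearest to 0 at -4.03 for negative regions and at 1.53 for positive ones in the authors' deposited table. For a negative region the highest value is that of its weakest position. Fut4 had -4.03 there, with a summed statistic of -1424 over 94 positions. For a positive region it is the value of the strongest position, so these are not like bounds. A moderate gain could thus go unlisted where a like loss was listed, and the counts below are not rates over all CpG islands of the genome.

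Most islands were almost free of methylation in both genotypes. The median level was 3.24% in the DKO (interquartile range 2.68 to 4.63) and 3.09% in the WT (2.63 to 4.32). The median difference, DKO minus WT, was 0.0850 percentage points (-0.303 to 0.481), against a median spread estimate of 3.43 points in the authors' deposited table. The 2 genotypes differed by less than 1 point in 5286 islands (82.2%) and by less than 5 points in 6233 (96.9%). The whole range of differences ran from -20.9 to 65.0 points.

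**Figure D1:**
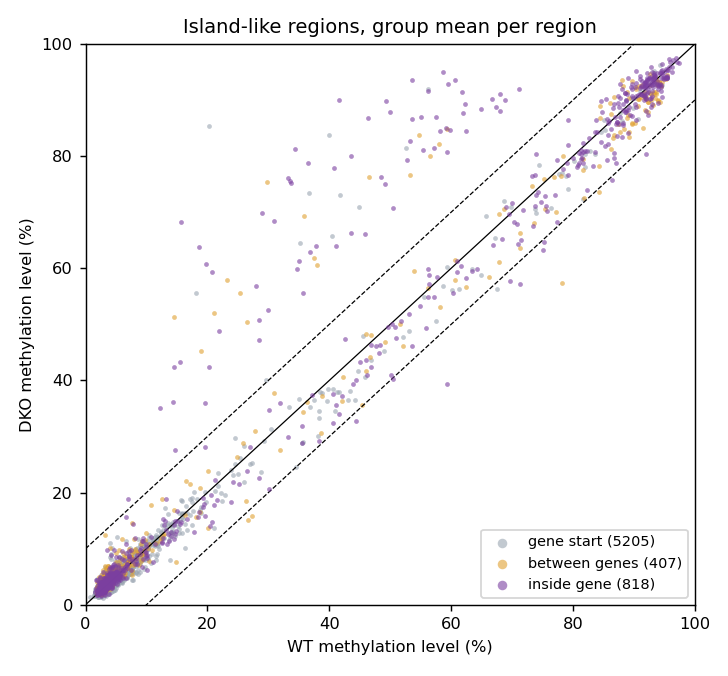
Methylation level of each island, DKO mean (vertical axis, %) against WT mean (horizontal axis, %), coloured by place, with the solid line at equality and dashed lines 10 points away. Most of the 6430 points crowd into the low corner around 3%, a cloud of 95 lies above the upper dashed line and 14 lie below the lower one.

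Islands under 10% in both genotypes numbered 5639 (87.7% of islands), against 1.66% of all autosomal regions in the table. In these low islands the median level was 3.07% in the DKO and 2.96% in the WT, and 90.0% of them differed by less than 1 point. Their differences spanned -3.37 to 6.34 points. The upper end belonged to an island inside H13, the signal peptide peptidase gene, at 9.79% in the DKO and 3.45% in the WT. Low islands were long and dense, with medians of 152 positions and 7.22 bp per position.

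The 8 low islands with the most positions differed by less than 1 point each. The longest was at Ptch1, which encodes the Sonic hedgehog receptor, with 740 positions over 6406 bp (chromosome 13, 63562628 to 63569033). It was at 2.70% in the DKO and 2.29% in the WT, with a spread estimate of 3.47 points in the authors' deposited table. Arid2, a chromatin remodelling subunit, had 736 positions at 2.53% in the DKO and 2.27% in the WT. Zswim6 had 715 positions at 2.59% in the DKO and 2.46% in the WT. These 3 islands read nearly as low in the knockout as in the WT. Tle3, a Groucho-type corepressor, had 686 positions at 3.11% in the DKO and 2.40% in the WT. Irs2, an adaptor of the insulin receptor, had 685 positions at 3.84% in the DKO and 3.47% in the WT. The islands of Ptma (2.50% in the DKO, 2.39% in the WT) and of the adhesion receptor gene Adgrl2 (3.09% in the DKO, 2.78% in the WT) were alike. The homeobox gene Cux1 showed the widest difference of the 8, at 3.72% in the DKO and 2.77% in the WT.

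Genes of broad use kept unmethylated start islands. All 13 start islands of 28 housekeeping genes were under 10% in both genotypes, the widest gain being that of B2m, the light chain of MHC class I, at 3.84% in the DKO and 2.68% in the WT. All 25 start islands of 34 ribosomal protein genes were low, from -0.986 to 0.498 points of difference, with Rplp0 at 3.67% in the DKO and 3.17% in the WT. All 20 start islands of 36 cell cycle genes were low, as were all 20 of 31 Polycomb and Trithorax regulators and all 16 of 29 DNA methylation genes. Among these, Cdkn2b, an inhibitor of cyclin-dependent kinases, was at 6.27% in the DKO and 5.59% in the WT, and Mbd2, a methyl-CpG binding protein gene, at 4.45% in the DKO and 3.17% in the WT. For comparison, 4862 of the 5057 start islands of all protein-coding genes were low (96.1%), so a low start island is the common case. Of 21900 protein-coding genes, 5417 had a listed start island (24.7%).

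Regulators of the hair follicle were alike. Of 25 start islands at 37 hair matrix and epithelial transcription factors, 24 were low. The differences of the 25 ran from -2.095 points at Runx3 to 1.90 points at Vdr. Hoxc13, a homeobox gene needed for the hair shaft, was at 3.14% in the DKO and 3.16% in the WT. Lef1, a nuclear partner of beta-catenin, was at 3.26% in the DKO and 3.29% in the WT in the larger of its start islands. An island inside Lef1 was at 95.1% in the DKO and 90.3% in the WT. The exception among the 25 lay 172 bp from an end of Tfap2c, an AP-2 factor gene whose strand is not tabulated. It was at 56.8% in the DKO and 58.6% in the WT, with 78 positions. A larger island inside Tfap2c, with 402 positions, was at 3.42% in the DKO and 2.47% in the WT. Inside genes of this list, 1 island gained: Casz1, a zinc finger factor, had 27.7% in the DKO and 14.6% in the WT at chromosome 4, 148859754 to 148860198. An island inside Tfap2a followed below the threshold, at 28.1% in the DKO and 19.7% in the WT.

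Signalling genes held 60 start islands among them, all low. Wnt genes, which drive matrix proliferation and hair fate, had 23 start islands with differences from -0.660 to 1.23 points. The widest gains within this list lay inside Wnt5a (79.3% in the DKO, 77.4% in the WT) and Wnt3 (8.69% in the DKO, 7.21% in the WT), both Wnt ligands. BMP and TGF-beta genes had 19 start islands, with Id3, a BMP target gene, at 2.98% in the DKO and 2.13% in the WT, and an island inside the ligand gene Bmp2 at 11.96% in the DKO and 9.49% in the WT. Notch and Sonic hedgehog genes had 18, led by the receptor gene Notch1 at 4.70% in the DKO and 3.36% in the WT and by Disp1, needed for hedgehog release, at 7.73% in the DKO and 6.60% in the WT.

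Keratins had few listed islands: of 41 found, only Krt19 had a start island, at 5.68% in the DKO and 4.63% in the WT, and Krt10 an island inside the gene, at 3.13% in the DKO and 2.97% in the WT. Of 10 start islands of hair shaft, desmosome and cornification genes 9 were low. Among these, Dsp, the desmoplakin gene, was at 4.64% in the DKO and 3.28% in the WT, and Pkp1, the plakophilin 1 gene, at 4.99% in the DKO and 3.70% in the WT. The other belonged to Tgm1, a cross-linking enzyme of cornification, at 80.3% in the DKO and 81.9% in the WT. Hox genes had 13 start islands, all low, with the widest range of differences (-2.41 to 3.01 points) among the lists whose start islands were all low. Hoxb6 was at 7.87% in the DKO and 4.87% in the WT, and an island inside Hoxb3 at 8.86% in the DKO and 4.22% in the WT. Of 109 developmental factors known as Polycomb targets only 3 had a listed start island (2.75%, against 24.7% of all protein-coding genes), all low. The widest gains were 0.636 points inside Lmx1a and 0.179 points inside Barhl1, both homeobox genes. The widest change of this list was a loss inside Meis1, at 64.7% in the DKO and 75.2% in the WT.

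Start islands at markers of other skin cells were low too. The 7 start islands of fibroblast and dermal papilla genes were low, with Lox, a collagen cross-linking enzyme gene, at 5.05% in the DKO and 4.93% in the WT, and Thy1 at 2.77% in the DKO and 2.82% in the WT. Mitf, the melanocyte master factor, was at 3.54% in the DKO and 2.49% in the WT, while the island listed inside the pigment gene Pmel is the start island of Cdk2, counted with the cell cycle genes. Immune, endothelial and muscle markers had no start island in the table, and Zap70, a T cell kinase gene, had an island inside the gene at 23.8% in the DKO and 26.5% in the WT. Krt14 had no listed island. Low island methylation does not show expression, and a part of other cells in the levels was not tested.

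The islands of the TET genes themselves were low. The start island of Tet2 was at 2.83% in the DKO and 3.03% in the WT, and that of Tet1 at 3.34% in the DKO and 3.42% in the WT. An island inside Tet3 was at 2.94% in the DKO and 3.04% in the WT. These levels do not check the deletion.

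A small number of islands gained. The DKO level was at least 10 points above the WT level in 95 islands (1.48%), whereas 26.5% of all autosomal regions in the table did so. The count depended on the island limits: it was 42 at a spacing below 10 bp, 309 below 15 bp, 551 with at least 20 positions and 9 with at least 80 positions. Of the 95, 89 gained at least 20 points, 36 at least 30 points and 2 at least 50 points. The gaining islands had a median of 75.7% in the DKO (interquartile range 60.3 to 85.2) and 41.2% in the WT (28.8 to 56.2). The median gain was 27.03 points, against a median spread estimate of 3.54 points in the authors' deposited table, but these islands were chosen by that gain. They were short and less dense, with medians of 45 positions, 487 bp and 10.5 bp per position. The part of the listing in their size was not tested. In the authors' deposited table, a total of 91 of the 95 had a negative statistic, and no other island did.

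The widest gain was at Fut4, which encodes the fucosyltransferase that makes the Lewis x sugar. Its gaining island lies inside the gene, 795 bp from the start (chromosome 9, 14750273 to 14751327, 94 positions), and was at 85.3% in the DKO and 20.2% in the WT. The difference was 65.0 points with a spread estimate of 3.27 points in the authors' deposited table. Only 159 bp away lies the island over the Fut4 start, with 160 positions, which was at 5.30% in the DKO and 4.39% in the WT. The large gain and the unmethylated start thus lie side by side in the same gene.

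The next gains also lay mostly inside genes. Btrc, the F-box protein gene of a ubiquitin ligase that acts on beta-catenin, had 40 positions (chromosome 19, 45476046 to 45476490) at 68.3% in the DKO and 15.7% in the WT, with a wide spread estimate of 6.10 points in the authors' deposited table. Foxm1, a transcription factor of proliferating cells, had 40 positions (chromosome 6, 128365670 to 128366127) at 90.1% in the DKO and 41.7% in the WT. Dot1l, a histone H3 methyltransferase gene, had 145 positions (chromosome 10, 80791484 to 80793075) at 81.3% in the DKO and 34.3% in the WT. Their spread estimates were 3.58 points for Foxm1 and 3.44 points for Dot1l in the authors' deposited table. All 4 of these islands more than doubled their level.

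Beyond these 4, the remaining 11 of the 15 widest gains lay between 40.5 and 45.6 points. An island between genes, 51864 bp from Nrep, was at 75.4% in the DKO and 29.8% in the WT. The island inside Gdpd5, a glycerophosphodiesterase gene, was at 63.8% in the DKO and 18.6% in the WT. An island 257 bp from an end of Nfe2, an erythroid factor gene whose strand is not tabulated, was at 83.8% in the DKO and 39.9% in the WT. These 3 were the widest of the 11. The mitochondrial carrier gene Ucp3 followed with 76.1% in the DKO and 33.3% in the WT, and the ubiquitin ligase gene Hectd3 with 75.7% in the DKO and 33.5% in the WT. The nuclear factor gene Aff3 had 78.7% in the DKO and 36.6% in the WT, and the Rab GTPase activator gene Tbc1d16 had 75.3% in the DKO and 33.6% in the WT. The island inside 2700081O15Rik was at 60.9% in the DKO and 19.8% in the WT, and that inside the dynein light chain gene Dnal4 at 69.9% in the DKO and 29.0% in the WT. The last of the 15 were the Mob family gene Mob3a, at 89.8% in the DKO and 49.2% in the WT, and Sik1, a salt-inducible kinase gene, at 86.8% in the DKO and 46.3% in the WT. In all 11 the WT level lay between 18.6% and 49.2%.

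**Figure D2:**
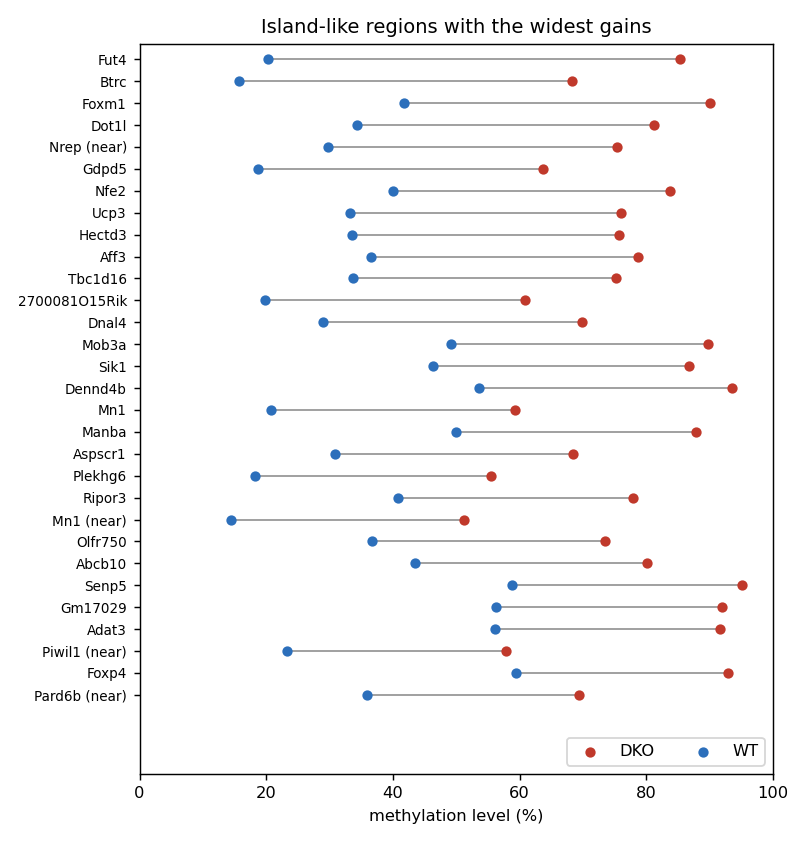
Methylation level (%) of the 30 islands with the widest gains, DKO in red and WT in blue, joined by a line and ordered by the difference; "near" marks the nearest gene of an island between genes. Fut4 leads with 85.3% in the DKO and 20.2% in the WT, and no DKO level of the 30 lies under 51.3%.

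No gene list had a gaining start island. Of the other islands inside genes, 1 of 4 gained for cell cycle genes and 1 of 3 for Polycomb and Trithorax regulators. The same held for 1 of 15 at hair matrix and epithelial transcription factors and 1 of 3 at germline genes, and for none in the remaining lists. The lists do not hold every gene of a pathway. Outside them, islands gained inside Btrc (52.5 points), Lgr6 (11.9 points) and the activin receptor gene Acvr2b (26.4 points). E2f1, a factor of the G1-to-S step, had 64.0% in the DKO and 37.8% in the WT at an island inside the gene. Kmt2d, a histone H3 lysine 4 methyltransferase gene, had 88.0% in the DKO and 67.9% in the WT, while Kdm2b, a CXXC demethylase gene of a Polycomb complex, had 92.0% in the DKO and 89.6% in the WT. Among all protein-coding genes, 7 of 5057 start islands and 71 of 874 other islands inside genes gained. The lack of a gaining start island in the lists is thus near the background. Counts inside list genes are small and were not compared by a test. In a stretch chosen after its values were seen, 5 of 39 islands gained, against 1.48% of all islands. They lay on chromosome 10 between 80002893 and 80793075, inside Abca7, Apc2, Adat3, Mob3a and Dot1l. Another 2 gaining islands lay side by side inside Mn1, at 59.3% in the DKO and 20.7% in the WT and at 43.2% in the DKO and 15.5% in the WT.

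At the threshold of 10 points, the islands just inside were those 775 bp from 4930487H11Rik (40.1% in the DKO, 29.6% in the WT), inside Lgr6, a receptor gene of the Wnt pathway (18.9% in the DKO, 6.94% in the WT), inside Casz1 and inside the nuclear factor I gene Nfix (35.9% in the DKO, 19.7% in the WT). Just outside were an island 20231 bp from Tacc3 (12.5% in the DKO, 3.26% in the WT) and one inside Kremen2, a Dickkopf receptor gene (15.6% in the DKO, 6.63% in the WT). The 4 islands just inside were those gaining islands with a positive statistic in the authors' deposited table, and the smallest gain with a negative one was 18.8 points.

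Low islands lay mostly at gene starts and gaining islands mostly inside genes. Of the low islands 4978 (88.3%) lay within 1 kb of a gene start, 417 elsewhere inside a gene and 244 between genes. Of the gaining islands 11 (11.6%) lay within 1 kb of a start, 68 (71.6%) inside a gene and 16 (16.8%) between genes. Read the other way, 0.211% of the 5205 start islands gained, 8.31% of the 818 inside genes and 3.93% of the 407 between genes. With an annotation of tabulated starts alone, 7 gaining and 4163 low islands lay within 1 kb of a start. The places were not compared by a test, because islands share genes and neighbourhoods.

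The position inside genes was measured from the start, where the strand was known. The 55 gaining islands had a median position at 59.6% of the gene's length from its start, and 37 lay past the midpoint. The 253 low islands inside genes had a median position at 31.9%, with 92 past the midpoint. Over all 581 islands inside genes the median was 57.3%, with 319 past the midpoint, so the gaining islands lay near the median of all. Islands at 80% or more in both genotypes had a median of 72.6%.

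Where a gene had both a gaining island in its body and an island at its tabulated start, the start stayed low without exception among those listed. There were 25 such genes with 23 body islands, at medians of 70.8% in the DKO and 36.8% in the WT. Their 26 start islands were all under 10% in both genotypes. Their medians were 3.10% in the DKO and 3.20% in the WT, with differences between -0.897 and 1.62 points. Dot1l shows it: its start island, with 227 positions, was at 2.68% in the DKO and 2.96% in the WT. The start of Acvr2b, an activin receptor gene, was at 2.63% in the DKO and 2.87% in the WT, while its body island was at 61.4% in the DKO and 35.0% in the WT. The other protein-coding start islands were as often low, at 96.1% over all, so low starts at these genes are near the background.

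The share of islands that gained varied with the WT level, which also enters the gain itself. Of the 5678 islands under 10% in the WT a single island gained (0.0176%), that inside Lgr6. The share was 7.06% of 170 islands at 10% to 20%, 32.0% of 100 at 20% to 40%, 36.5% of 104 at 40% to 60% and 13.8% of 87 at 60% to 80%. None of the 291 islands at 80% or more gained, where a gain of 10 points has little or no room.

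At an intermediate WT level the share was still lower in islands than in less dense regions. At 20% to 60% in the WT, 70 of 204 islands gained (34.3%), against 4516 of 5101 autosomal regions (88.5%) that also had at least 40 positions but a wider spacing. Over all other autosomal regions at that level the share was 85.7%. All these shares are over listed regions, and the part of the listing in the contrast was not tested. Within the islands the share was 0 of 21 below 6 bp per position, 8 of 32 at 6 to 8 bp, 21 of 61 at 8 to 10 bp and 41 of 90 at 10 to 12 bp. By place it was 10 of 62 at gene starts, 46 of 101 inside genes and 14 of 41 between genes. The share was highest in the least dense class and inside genes, and the parts of place and density were not separated by a test.

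**Figure D3:**
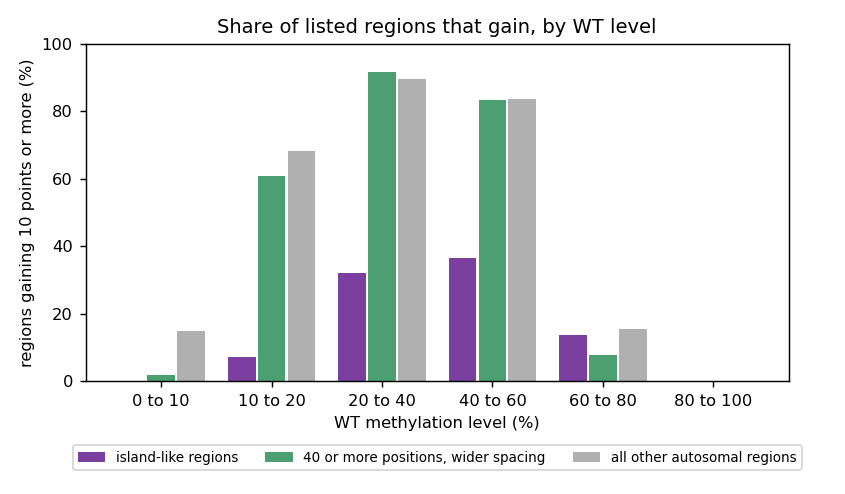
Share of listed regions with a gain of 10 points or more (vertical axis, %) by WT methylation level (horizontal axis, %), for islands, for autosomal regions of at least 40 positions with wider spacing, and for all other autosomal regions. Islands stay at 36.5% or less in every class, while both comparison sets exceed 80% at WT levels of 20% to 60%.

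Taken over all WT levels together, the share that gained was lower in larger islands. The number of positions follows from where the listing ended each region, and the statistic differed by sign, as given above. The part of the listing in these shares was not tested. Of the islands with 40 to 60 positions 76 of 882 gained (8.62%), of those with over 60 and up to 100 positions 14 of 1201 (1.17%), and of those with over 100 and up to 200 positions 5 of 2533 (0.197%). None of the 1814 islands with over 200 positions gained. Dense regions with 20 to 39 positions, too short for the rule, gained in 22.9% of 1993 cases.

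Islands with high methylation in both genotypes formed another group. At 80% or more in both there were 270 islands, whose median was 91.2% in the DKO and 91.7% in the WT. The one with most positions (325) lay inside Bcl11b, a zinc finger factor gene, at 94.9% in the DKO and 94.5% in the WT. It lies in the same gene as a start island at 2.82% in the DKO and 2.71% in the WT. Others lay at the cadherin genes Fat1 (96.3% in the DKO, 94.2% in the WT) and Celsr2 (97.5% in the DKO, 96.8% in the WT).

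Imprinted genes supplied many islands of intermediate methylation, and none of these gained 10 points. Over 16 islands of the imprinted list at 30% to 70% in the WT, the median was 36.8% in the DKO (range 29.0 to 43.6) and 40.7% in the WT (35.7 to 46.9). All 16 were lower in the DKO, by 1.17 to 9.02 points, with a median difference of -5.02 points. The lower level was widest at Grb10, an adaptor gene of receptor kinases, with 29.2% in the DKO and 38.2% in the WT. Peg10, a retrotransposon-derived gene, shared an island with Sgce at 30.1% in the DKO and 38.2% in the WT. The island of Kcnq1ot1, a long non-coding RNA, was at 40.6% in the DKO and 45.8% in the WT, and that of Mest at 38.1% in the DKO and 43.4% in the WT. The Nnat island, whose promoter is printed above, was at 41.6% in the DKO and 44.7% in the WT. The starts of Zrsr1 (37.7% in the DKO, 38.9% in the WT) and Airn (38.5% in the DKO, 39.8% in the WT) differed least of the 16. The differences of -9.02 points at Grb10, -8.16 at Peg10 and -3.04 at Nnat stood beside spread estimates of 3.65, 6.46 and 4.10 points in the authors' deposited table.

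The same direction was common beyond the imprinted list. Of the 189 islands at 30% to 70% in the WT, 66 gained, and of the other 123, imprinted ones included, the DKO was lower in 96, with a median difference of -3.04 points. The listing takes smaller differences on that side, as given above for the statistic, and its part in this direction was not tested.

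Germline genes serve mainly in germ cells. The list taken for them had 6 start islands, of which 5 were at 20% or more in the WT and none gained. The other was that of Slc22a4, whose germline role was not checked, at 6.24% in the DKO and 4.87% in the WT. The start of Mael, a gene of the piRNA pathway, was at 86.5% in the DKO and 85.1% in the WT. Tdrd12 was at 90.4% in the DKO and 90.3% in the WT, Tex12 at 86.2% in the DKO and 88.0% in the WT, and Syce1 at 84.3% in the DKO and 84.7% in the WT. An island inside Spo11, the meiotic break enzyme gene, was as high, at 92.7% in the DKO and 92.1% in the WT. Lower levels were found at Dazl, with 47.8% in the DKO and 52.1% in the WT, and Dppa3, with 46.1% in the DKO and 53.5% in the WT. Only an island inside Piwil2, a PIWI gene, gained, with 81.4% in the DKO and 57.2% in the WT.

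**Figure D4:**
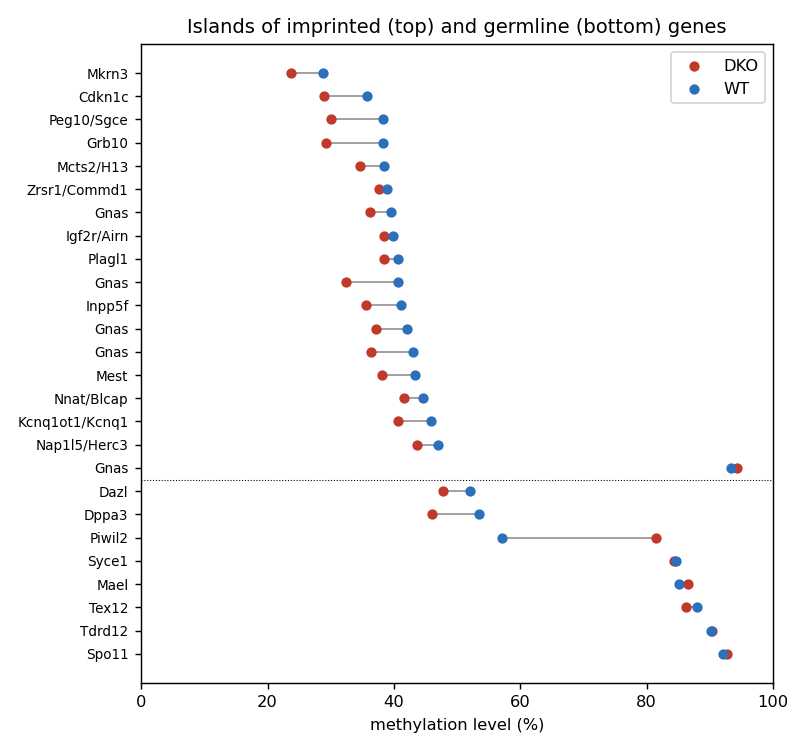
Methylation level (%) of islands at 20% or more in the WT at imprinted genes (top) and germline genes (bottom), DKO in red and WT in blue, ordered by WT level within each list. The imprinted islands lie between 23.7% and 46.9% with the DKO on the left, apart from 1 in Gnas above 90%, and among germline genes only Piwil2 shows a wide gain.

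Losses were rarer than gains. The DKO level was at least 10 points below the WT level in 14 islands (0.218%), against 2.11% of all autosomal regions in the table. Of these 9 lay inside genes, 4 between genes and 1 at a start, that of the histone gene H3f4. The widest lay 256770 bp from the formin gene Diaph3, at 57.3% in the DKO and 78.3% in the WT, where the spread estimate of 9.24 points in the authors' deposited table was the widest of all islands. Islands inside the syntrophin gene Sntg1 (39.4% in the DKO, 59.3% in the WT) and Pik3c3, a lipid kinase gene of autophagy (57.2% in the DKO, 71.3% in the WT), followed. The next were inside Tmem132c (57.7% in the DKO, 69.6% in the WT), Enox1 (63.2% in the DKO, 75.05% in the WT) and the zinc finger gene Zfp791 (80.3% in the DKO, 92.1% in the WT). An island inside Meis1, a homeobox gene, was just inside the threshold at 64.7% in the DKO and 75.2% in the WT. Just outside was Gm10479, at 24.6% in the DKO and 34.5% in the WT.

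Low islands stood beside regions with wide gains. Of the 5639 low islands, 3645 (64.6%) had a listed region within 2 kb that gained at least 20 points, a gain met by 23.3% of all autosomal regions in the table, which is a share of regions and not of places with such a region nearby. The share was 40.4% for islands high in both genotypes, 26.4% for those at 30% to 70% in both and 35.8% for the gaining islands. Regions within 500 bp of a low island had medians of 64.5% in the DKO and 34.4% in the WT, and 72.7% of them gained at least 20 points. Between 0.5 and 1 kb the medians were 70.4% in the DKO and 42.1% in the WT, with 63.7% gaining. Between 1 and 2 kb the medians were 81.2% in the DKO and 63.6% in the WT, with 43.2% gaining, and between 4 and 5 kb they were 81.7% in the DKO and 74.3% in the WT, with 33.3% gaining. These medians are over listed regions only, and each distance holds a different set of regions. The listing asks for a larger difference on the side of a gain, as given above for the statistic. Its part in these medians was not tested, so they do not show how steeply the level climbs from an island in either genotype. Of the regions within 500 bp of islands at 80% or more in both genotypes, 26.5% gained at least 20 points. Their medians were 88.0% in the DKO and 85.9% in the WT, a WT level at which such a gain has little or no room.

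**Figure D5:**
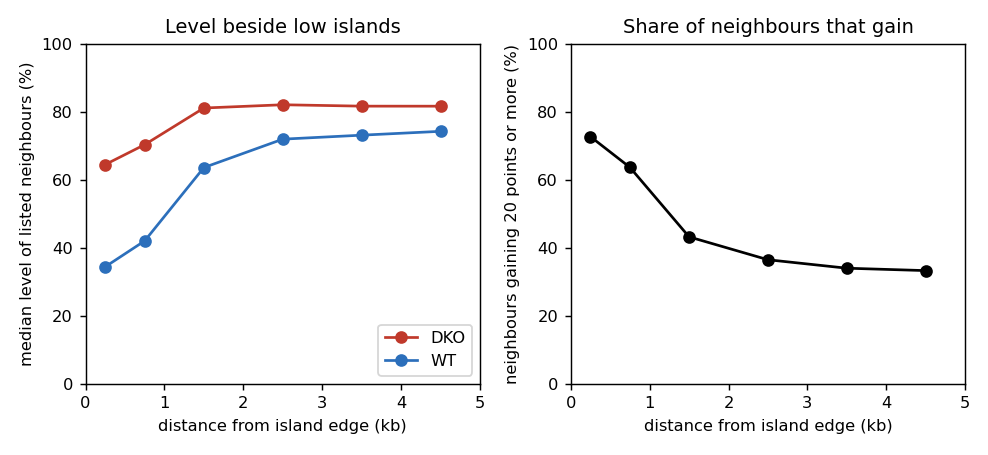
Left, median methylation level (%) of listed regions by distance (kb) from the edge of low islands, DKO in red and WT in blue; right, share (%) of these regions that gained at least 20 points. Within 500 bp the medians are 64.5% in the DKO and 34.4% in the WT with 72.7% gaining, and by 4 to 5 kb they are 81.7% in the DKO and 74.3% in the WT with 33.3% gaining.

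Single loci show such pairs of a low island and a gaining region. The start island of Ptp4a2, a phosphatase gene, was at 2.65% in the DKO and 2.62% in the WT, and the region 535 bp away was at 79.7% in the DKO and 20.4% in the WT. The start island of Mycn, with 443 positions, was at 3.12% in the DKO and 2.50% in the WT, and 282 bp away a region of 137 positions was at 76.6% in the DKO and 24.7% in the WT. The start island of Smo, the hedgehog signal transducer, was at 3.45% in the DKO and 3.40% in the WT, with a region 874 bp away at 83.0% in the DKO and 30.4% in the WT. These loci were taken from the 30 low islands with the widest gain beside them, a choice made by that gain.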

How the data were processed

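Genomic DNA of sorted cells was sheared, bisulfite converted and sequenced, per the labels' protocols. The submitters' processing notes name Trim Galore for trimming, Bismark for alignment and the build GRCm38 (mm10). For region calling, smoothing and listing bounds, the tool and settings were not given in the sources used here. Per the file headers, the authors' table gives for each region a mean methylation fraction per group, multiplied to percent here, a summed and an extreme statistic, treated as a score, and a spread estimate. The region table used here holds group means, and read counts per library were not analysed here, so the planned tests on reads were replaced by descriptions.

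Of the regions with 2 positions, 89.2% (69604 of 78007) were 2 bp wide, which shows that strands were mostly counted apart. Gene starts came from the RefSeq promoter table (GRCm38.p6), and for the 4408 of 21900 protein-coding genes without an entry either gene end was used. An island was assigned to genes starting within 1 kb, otherwise to genes overlapping it, otherwise to the nearest protein-coding gene. An island at several genes can count under several lists.

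The genes named are those at the 15 widest gains, the 6 widest losses and the 8 low islands with most positions, the 2 widest gains of each of 19 gene lists, list members at 20% or more in the WT, and the Tet genes and Krt14. Further examples (thresholds, neighbours, start islands of named genes, high islands) were picked after their values were seen. The members and lists were chosen with earlier results of these data known. The scripts were tested on simulated regions with known classes. Alternatives were other spacings, position minimums, gain and loss sizes, windows and merging within 500 bp. The software was Python 3.11.15 with pandas 2.3.3, numpy 2.4.6, matplotlib 3.10.9 and scipy 1.17.1.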

Additional observations from a re-analysis of the deposited data

How the results depend on the processing

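The number of islands (4976 to 8423), the median levels and the median difference kept their size under all alternatives run. The share under 10% in both genotypes was 92.4% at a spacing below 10 bp, 78.4% below 15 bp, 70.7% with at least 20 positions and 95.6% with at least 80 positions. The number of gaining islands was 42, 309, 551 and 9 under the same 4 settings, and 119 or 89 with a minimum gain of 5 or 20 points. The number of losing islands was 78 at a minimum loss of 5 points, 1 at 20 points, 28 with at least 20 positions and 3 with at least 80 positions. The share at a gene start was 70.3% by overlap, 87.1% within 5 kb and 67.6% with tabulated starts alone, a setting chosen after seeing the data. The share of all islands with a gaining neighbour, 61.5% within 2 kb, was 48.5% within 1 kb and 77.9% within 5 kb. Leaving out a library was not run, since the values used are group means. No paired analysis was possible because the values used are 1 mean per genotype. The depth behind a level is unknown, so small differences cannot be set against counting error.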

Other observations

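On chromosome X, 210 regions met the same limits on positions and spacing. Their median level was 10.7% in the DKO (interquartile range 8.74 to 12.7) and 20.4% in the WT (16.9 to 23.7). A level at least 10 points lower in the DKO was found in 93 of them (44.3%), and 0 gained 10 points. The labels do not give the sex of the animals, and the sex make-up of the libraries and the genotype cannot be told apart for these values.

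Of the autosomal islands, 30 overlapped a tabulated miRNA hairpin, and 0 of these gained 10 points or more, against 1.48% of all islands, a share that gives less than 1 in 30.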
